A study of Mus musculus with 4 samples.

Results

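Sertoli cells are the somatic nurse cells of the seminiferous tubule. They hold the developing germ cells, seal the tubule with tight junctions at the blood-testis barrier, and answer follicle-stimulating hormone (FSH) and androgen with secreted proteins that feed the germ cells. The 10 genes described here were a fixed list of genes used as Sertoli cell markers, taken by gene symbol from the reads on the sense strand of annotated exons. All 10 were found among the 12415 gene exon sense features. They comprise 5 transcription factors (Sox9, Wt1, Gata4, Gata1 and Dmrt1), the FSH receptor gene Fshr, the inhibin and activin subunit gene Inhbb, the tight junction gene Cldn11, and the secreted protein genes Clu and Trf.

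The RNA came from whole testes of C57Bl/6J mice at postnatal day 60, with 2 libraries from Nef-sp-/- mice (called knockouts below) and 2 from Nef-sp+/- mice (called controls below). Nef-sp (annotated as 2610020H08Rik) encodes a testis-specific nuclear exoribonuclease, and its null allele carries a 23 bp out-of-frame deletion made with Cas9 nickase and a pair of guide RNAs. As their genotype states, the control mice also carry 1 null allele, and no wild-type library is part of the comparison. Founder animals had been bred to wild-type C57Bl/6J Rj mice. The question put to these genes was whether Sertoli cell transcripts differ between testes with and without an intact copy of Nef-sp. In whole-testis RNA, fewer Sertoli cells and less RNA per Sertoli cell cannot be told apart.

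Gene exon sense reads numbered between 15815159 and 26618821 per library, with the largest total in Nef-sp+/- replicate 2. Normalized counts, used below unless raw reads are named, are reads scaled to a common library size by the TMM factors of edgeR. Nef-sp itself had normalized counts of 1843 and 1693 in the controls and 407 and 497 in the knockouts. These values run in the direction of the genotype labels. Spermatid and spermatocyte marker genes, with summed normalized counts of at least 443520 and 62976 in each library, were read at high levels in all 4 libraries. Fold changes are those of Nef-sp-/- over Nef-sp+/- from the quasi-likelihood test of edgeR, with their standard errors (SE) and an adjusted p below 0.05 as the threshold. The labels do not say whether replicates are separate animals, so p-values measure only the spread between these libraries, which may be technical.

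None of the Sertoli cell genes passed this threshold between the genotypes. Of the 10, 9 passed the expression filter and 0 of these were called, against 0.00932% of the 10728 features tested, which is Nef-sp alone. At an unadjusted p below 0.05 there were again 0 of 9, against 4.8% of the features tested. DESeq2 called 0 of the 9, against 0.0186% of the same features, and gave 0 at an unadjusted p below 0.05, against 1.38% of them. The log2 fold change was below 0 for 6 and above 0 for 3 of the 9, and ran from -0.24 for Sox9 to 0.12 for Gata1. The median over the 9 genes was -0.08, beside a median of -0.0002 over all features tested, and it was 0.04 without Nef-sp-/- replicate 1. In absolute size the median was 0.09 for the 9 genes and 0.07 for all features.

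**Figure D1:**
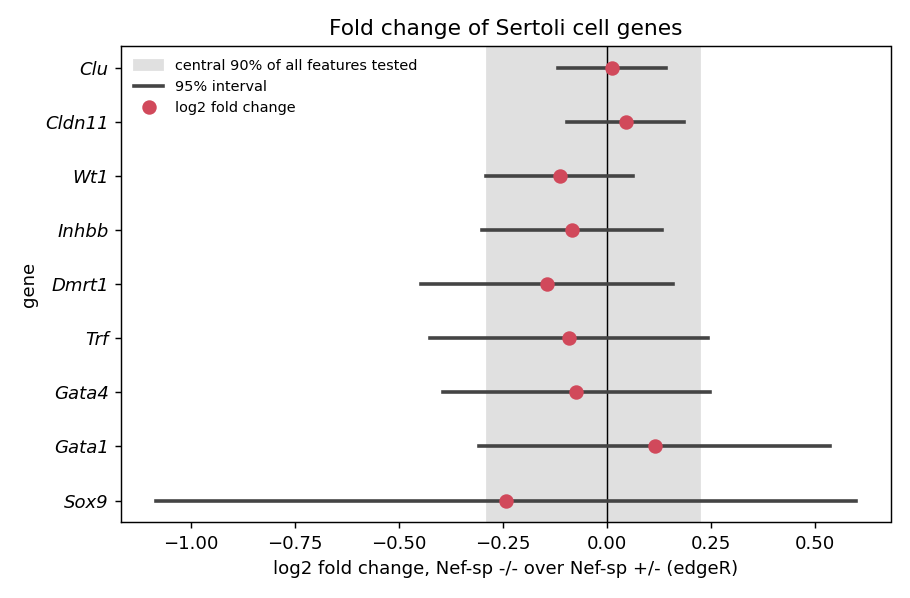
Log2 fold change of each Sertoli cell gene that passed the filter (x axis, Nef-sp-/- over Nef-sp+/-; points are edgeR estimates and bars their 95% intervals), with genes ordered by level and the central 90% of all features tested shaded. Every interval includes 0, and it is narrowest for Clu and widest for Sox9.

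The levels of these genes spanned several orders of magnitude when set per length, as reads per kilobase of exon per 1e6 gene exon sense reads. Clu stood at 247.4 and Cldn11 at 46.4 on this scale, as means over the 4 libraries. Wt1 followed at 5.13, Inhbb at 3.90, Dmrt1 at 3.76 and Trf at 3.60. Gata4 stood at 2.10, Gata1 at 1.29, Sox9 at 0.217 and Fshr at 0.0308. In this order, the ranges of neighbouring genes over the 4 libraries did not overlap except for Inhbb with Dmrt1 and Dmrt1 with Trf. Of the 11506 features with an annotated length, 97.8% lay below Clu, 86.2% below Cldn11, 51.6% below Wt1, 15.7% below Sox9 and 4.13% below Fshr. With the longest annotated transcript as the length, Wt1 stood at 10.3 and Clu at 469.7 on the same scale, and Trf moved from rank 6 to rank 4, ahead of Dmrt1 and Inhbb.

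**Figure D2:**
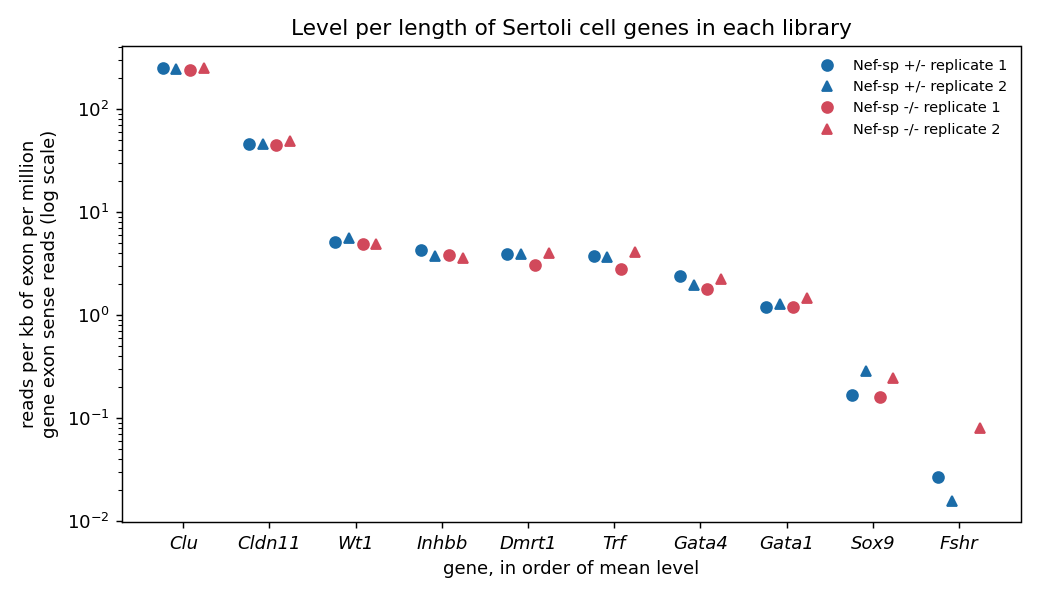
Level of each Sertoli cell gene per length (y axis, reads per kilobase of exon per 1e6 gene exon sense reads, log scale) in each of the 4 libraries, with genes in order of mean level (x axis). Clu and Cldn11 lie above the other 8 genes in every library, and Fshr, whose library at 0 reads (Nef-sp-/- replicate 1) cannot be drawn on a log scale, lies lowest.

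Among the transcription factors, Wt1 and Gata4 are needed for the development and upkeep of Sertoli cells. Wt1 encodes a zinc finger protein and lies on the plus strand of chromosome 2 from 104966686 to 105013773 in mm9. Its normalized counts were 578 and 651 in the controls and 572 and 570 in the knockouts, or 614 ± 51.6 and 571 ± 0.935 (SD, n = 2 each). Both knockouts thus lay below both controls. Wt1 was the 1 gene of the 9 without overlap, a pattern that 18.1% of all features tested showed in this direction and 16.4% in the other. The log2 fold change of Wt1 was -0.11 (SE 0.0802, adjusted p = 0.954), and its 95% interval allowed a level in the knockouts between 81.8% and 104.5% of that in the controls. The value was -0.017 without Nef-sp+/- replicate 2 and -0.188 without Nef-sp+/- replicate 1.

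Gata4 encodes a GATA zinc finger factor that Leydig cells also express, and lies on the minus strand of chromosome 14 from 63817759 to 63890529. It had normalized counts of 170 and 145 in the controls and 132 and 164 in the knockouts, which overlap. The log2 fold change was -0.07 (SE 0.146, adjusted p = 0.976), with a 95% interval from 76.1% to 118.7% of the control level. Gata1, another GATA factor, is found in Sertoli cells at certain stages of the epithelial cycle and is best known from red cell precursors. It lies on the minus strand of chromosome X from 7536386 to 7555197. Its normalized counts were 52.9 and 59.2 in the controls and 55.4 and 67.4 in the knockouts, a log2 fold change of 0.12 (SE 0.191, adjusted p = 0.966). The highest value was that of Nef-sp-/- replicate 2, and the other knockout lay between the controls.

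The 2 GATA factors share their DNA-binding zinc fingers, and reads of 50 cycles could be shared between genes that are identical over that length. The coding sequences of the 2 genes are therefore shown around the longest run of bases that they share. The longest run of bases that both coding sequences hold is 24 bases, given in capitals below, from transcripts ENSMUST00000033502 (Gata1) and ENSMUST00000067417 (Gata4) of GENCODE vM1 on mm9.
Gata1: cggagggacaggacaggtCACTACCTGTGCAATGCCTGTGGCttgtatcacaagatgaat
Gata4: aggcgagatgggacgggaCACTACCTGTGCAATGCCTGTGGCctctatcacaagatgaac
These windows of 60 bases cover coding bases 646 to 705 of Gata1 and 685 to 744 of Gata4, and 50 of their positions are identical. Since the shared run is shorter than 50 bases, no stretch of that length occurs in both of these coding sequences. In the protein-coding transcripts of the annotation, the share of 50-base stretches that also occur in another gene was 0% for every Sertoli cell gene except Trf, where it was 19 of 2990, or 0.635%.

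Dmrt1 encodes a DM-domain factor that keeps Sertoli cells male and is also expressed in spermatogonia. The gene lies on the plus strand of chromosome 19 from 25580108 to 25678819. Its normalized counts were 188 and 193 in the controls and 149 and 196 in the knockouts, so that 1 knockout lay below and 1 above both controls. Its fold change was -0.14 on the log2 scale (SE 0.137, adjusted p = 0.956). It was 0.04 without Nef-sp-/- replicate 1 and -0.35 without Nef-sp-/- replicate 2.

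Sox9 is the factor that sets Sertoli cell fate in the fetal gonad, and lies on the plus strand of chromosome 11 from 112643538 to 112649074. It was covered by 11 and 32 raw reads in the controls and 11 and 16 in the knockouts, or normalized counts of 12.7 and 22.5 against 12.7 and 18.9. Both replicate 1 libraries were equally low, and both replicate 2 libraries were higher. For 11 reads, counting error alone gives a coefficient of variation of 30.2%. The log2 fold change was -0.24 (SE 0.381, adjusted p = 0.961), and from -0.26 to -0.16 in 7 other fits to all 4 libraries. The mean of the normalized counts in the knockouts was 89.9% of that in the controls. The 95% interval, the widest of the 9 genes, ran from 47.2% to 151.3% of the control level, so differences in that range are not excluded.

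FSH acts on Sertoli cells through its receptor, and inhibin B made by these cells feeds back on the pituitary. Fshr, on the minus strand of chromosome 17 from 89384292 to 89600015, was counted at very few reads in these libraries. Which of its exons the counted gene model covers is not given in the sources used here. It had 1 raw exon sense read in each control, and 0 and 3 raw reads in the knockouts. A count of 0 allows up to 3 reads, which is between 0.113 and 0.190 reads per 1e6 gene exon sense reads, and each library was at or under this floor. No fold change is given for that reason, and Fshr did not enter the test. In the antisense direction, the introns of Fshr held 4 and 3 raw reads in the controls and 2 and 2 in the knockouts, 11 in all against 5 exon sense reads.

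Inhbb encodes the beta B subunit, which is shared by inhibin B and activin B, and lies on the minus strand of chromosome 1 from 121312042 to 121318825. Its normalized counts were 336 and 303 in the controls and 312 and 286 in the knockouts. The groups overlapped, since the lower control fell between the knockouts. The means were 319.4 ± 23.5 and 299.1 ± 18.0 (SD, n = 2 each). On the log2 scale, the edgeR fold change was -0.08 (SE 0.0983, adjusted p = 0.956), with a 95% interval from 81.1% to 109.6% of the control level.

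Cldn11 encodes claudin 11, the claudin that closes the tight junctions between Sertoli cells. It lies on the plus strand of chromosome 3 from 31048868 to 31063246. Normalized counts of 1546 and 1595 in the controls and 1568 and 1675 in the knockouts gave means of 1570 ± 34.9 and 1622 ± 75.8 (SD, n = 2 each). The groups overlapped, and the log2 fold change was 0.05 (SE 0.0637, adjusted p = 0.957). From its 95% interval, the level in the knockouts was between 93.6% and 113.8% of that in the controls.

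Clu encodes clusterin, the most abundant of these transcripts and a major secreted glycoprotein of Sertoli cells, and lies on the plus strand of chromosome 14 from 66587320 to 66600385. It had 13480 to 22348 raw reads per library and made up between 83.1% and 84.0% of the reads of the 10 genes, followed by Cldn11 with 8.16% to 8.60%. Normalized counts were 15838 and 15737 in the controls and 15567 and 16254 in the knockouts, with the knockouts on both sides of the controls. For Clu the log2 fold change was 0.01 (SE 0.0588, adjusted p = 0.990), with the narrowest interval of the 9 genes, 92.1% to 110.3% of the control level. Its sign was reversed, at -0.01, when libraries were scaled to the reads of all annotation categories.

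Trf encodes transferrin, which carries iron across the barrier to the germ cells, and lies on the minus strand of chromosome 9 from 103106331 to 103132774. Its normalized counts were 227 and 230 in the controls and 174 and 256 in the knockouts. The controls were close together, and the knockouts lay on either side of them, with standard deviations of 2.50 and 57.4. On the log2 scale, the fold change was -0.09 (SE 0.151, adjusted p = 0.966). It was 0.16 without Nef-sp-/- replicate 1 and -0.39 without Nef-sp-/- replicate 2.

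**Figure D3:**
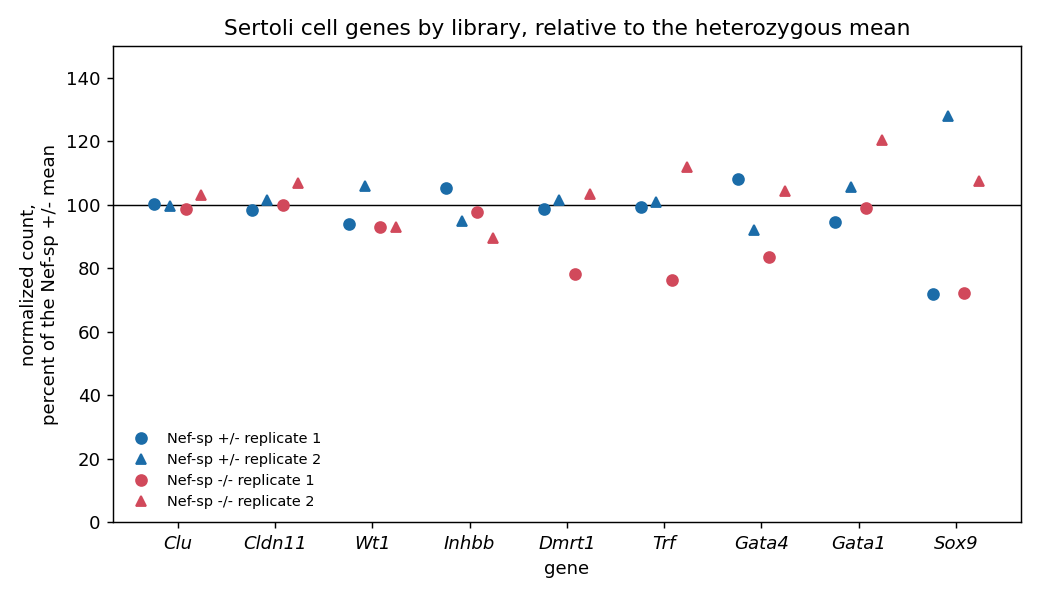
Normalized count of each Sertoli cell gene that passed the filter (x axis, in order of level per length) in each library, as percent of the Nef-sp+/- mean of that gene (y axis, from 0). Clu and Cldn11 stay within 98.4% to 106.7%, Trf and Dmrt1 in Nef-sp-/- replicate 1 are at 76.3% and 78.3%, and the 4 libraries of Sox9 range from 71.9% to 128.1%.

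For each of the 9 genes, the larger gap between replicates exceeded the gap between the genotype means, which was the case for 77.7% of all features tested. Taking the larger of 2 gaps between single libraries favours this outcome. The smaller gap between replicates was below the gap between the means for Wt1, Cldn11, Clu, Trf and Dmrt1. Nef-sp-/- replicate 1 was below replicate 2 for 7 of the 9 genes, where 50.0% of all features were, and the exceptions were Wt1 and Inhbb. In the controls, replicate 1 was below replicate 2 for 6 of the 9 genes, against 48.4% of all features. The biological coefficient of variation estimated by edgeR, given as a fraction, had a median of 0.0494 over the 9 genes and 0.0474 over all features.

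Summed over the 10 genes, normalized counts were 18949 and 18936 in the controls and 18542 and 19493 in the knockouts, and the knockouts lay on both sides of the controls. The log2 ratio of the means was 0.0057. Without Clu, the sum was 3111 and 3199 in the controls and 2975 and 3239 in the knockouts, a log2 ratio of -0.02. Together the 10 genes took between 0.0982% and 0.104% of the gene exon sense reads of a library.

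Intron sense reads, which come in part from unspliced RNA, were listed for 3 of the 10 genes. Clu had normalized intron counts of 29.1 and 31.6 in the controls and 44.1 and 35.2 in the knockouts, and a log2 fold change of 0.37 (SE 0.26, adjusted p = 0.9996). Both knockouts were above both controls, as was the case for 13.5% of the intron sense features tested. Wt1 had 24.7 and 13.2 in the controls and 19.1 and 24.2 in the knockouts, a log2 fold change of 0.27 (SE 0.366, adjusted p = 0.9996). Neither was called, against 0.0294% of the 3403 gene intron sense features tested. Cldn11 had between 1 and 4 raw intron reads per library and was not tested. In raw reads, the introns of Clu held between 26 and 43 per library and those of Wt1 between 16 and 22.

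Other genes known from Sertoli cells were looked at as further lists. Of 17 such genes, 13 were listed and tested, and 0 were called by edgeR or DESeq2. The median log2 fold change of the 13 was 0.05, with 7 above 0. The 2 with the smallest p were Defb36, a beta-defensin gene, and Cst9, a cystatin gene. Defb36 had normalized counts of 415 and 452 in the controls and 504 and 497 in the knockouts (log2 fold change 0.20, SE 0.0806, unadjusted p = 0.032 and adjusted p = 0.954 from edgeR). Cst9 had 2842 and 2906 in the controls and 3012 and 3520 in the knockouts (log2 fold change 0.18, SE 0.0748, unadjusted p = 0.0321 and adjusted p = 0.954 from edgeR). Both knockouts were above both controls in these 2 of the 13 genes and below in 0, against 16.4% and 18.1% of all features tested. The same 2 had an unadjusted p below 0.05 with edgeR, against 4.8% of all features tested. With DESeq2 there was 1 of the 13, against 1.38%. Amh, Gdnf, Cst12 and Krt18 were not listed, and the reason for their absence was not tested. The smallest total of any listed feature was 5 reads over the 4 libraries.

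Of 14 transcription factors and cofactors that work with these regulators, 10 were listed and 8 tested, with 0 called, 0 at an unadjusted p below 0.05 by edgeR or DESeq2, and a median log2 fold change of 0.12. Sox8, a close relative of Sox9, had normalized counts of 124 and 144 in the controls and 155 and 176 in the knockouts. Its log2 fold change was 0.28 (SE 0.134, adjusted p = 0.954), without overlap. Nr5a1, which encodes steroidogenic factor 1, had 384 and 450 against 443 and 476, a log2 fold change of 0.13 (adjusted p = 0.954), and its groups overlapped.

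In the FSH, inhibin and activin pathway, 17 of 19 further genes were listed and 13 tested, with 0 called, 0 at an unadjusted p below 0.05 by edgeR or DESeq2, and a median log2 fold change of -0.01. Creb1, a target of the kinase that FSH activates, had 380 and 408 in the controls and 404 and 458 in the knockouts (log2 fold change 0.12, adjusted p = 0.954). Prkar1a, a regulatory subunit of that kinase, had 3149 and 3205 against 3065 and 2982 (log2 fold change -0.07, adjusted p = 0.954), without overlap. Inhba and Fst were not listed.

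Among 19 junction genes of the blood-testis barrier, 18 were listed and 17 tested. There were 0 called by edgeR or DESeq2, and the median log2 fold change was -0.02. At an unadjusted p below 0.05 there were 2 with edgeR and 1 with DESeq2, against 4.8% and 1.38% of all features tested. Espn, which encodes the actin-bundling protein espin of the ectoplasmic specialization, had normalized counts of 418 and 427 in the controls and 390 and 277 in the knockouts (log2 fold change -0.34, adjusted p = 0.954). Lsr, a tricellular junction gene, had 247 and 267 against 223 and 204 (log2 fold change -0.28, adjusted p = 0.954). In both, the knockouts were below the controls. This held for 4 of the 17, and in 2 the knockouts were above, against 18.1% and 16.4% of all features tested.

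For iron and lipoprotein transport, 13 of 15 genes were listed and 9 tested, with 0 called by edgeR or DESeq2 and a median log2 fold change of 0.006. The summed level of the 13 genes was 4303 and 4363 normalized counts in the controls and 4040 and 4170 in the knockouts, without overlap. Of the 9 genes tested, 5 had a log2 fold change above 0 and 4 below. Fth1, the ferritin heavy chain gene, had normalized counts of 1594 and 1629 in the controls and 1409 and 1412 in the knockouts. Its means were 1611 and 1410, beside 4333 and 4105 for the sum, so most of that gap lay in Fth1. The log2 fold change of Fth1 was -0.19 (SE 0.0604, unadjusted p = 0.0087 and adjusted p = 0.954 from edgeR), without overlap. It was the 1 gene of the 9 tested with an unadjusted p below 0.05 by edgeR, against 4.8% of all features tested. Ireb2, an iron regulatory protein gene, had 505 and 605 in the controls and 443 and 532 in the knockouts (log2 fold change -0.20, adjusted p = 0.954).

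Markers of the other cells of the testis were summed per library beside the Sertoli cell genes, and 0 of their genes were called by edgeR or DESeq2. Leydig cell markers, all 10 listed, summed to 20029 and 20114 in the controls and to 19014 and 16615 in the knockouts, without overlap. The log2 fold change was above 0 for 5 and below 0 for 5 of the 10, with a median of -0.02. Both knockouts were below both controls for 4 of the 10 and above for 0, against 18.1% and 16.4% of all features tested. An unadjusted p below 0.05 was found for 3 with edgeR and 2 with DESeq2, against 4.8% and 1.38% of all features tested. With edgeR these were Cyp11a1 (log2 fold change -0.35, adjusted p = 0.859), Cyp17a1 (-0.27, adjusted p = 0.954) and Pdgfra. Cyp11a1 and Cyp17a1 encode enzymes of androgen synthesis, and Pdgfra had a log2 fold change of -0.29 (adjusted p = 0.954). Cyp17a1 had means of 10413 and 8617 normalized counts in controls and knockouts, and Cyp11a1 of 3380 and 2654. The 2 genes made up most of the sum. Hsd17b3, at a log2 fold change of -0.19, was also lower without overlap. Hsd3b1 and Insl3, at 0.15 and 0.18, overlapped between the groups. Spermatocyte markers summed to 62976 and 65255 in the controls and to 65371 and 68105 in the knockouts, without overlap, with 5 genes above and 4 below 0 and a median log2 fold change of 0.0078. Pgk2 alone had means of 31531 and 34377 normalized counts in controls and knockouts, a wider gap than that between the mean sums. Piwil1, with the smallest p of that list, had 6934 and 6544 against 5767 and 6457 (log2 fold change -0.14, adjusted p = 0.954), without overlap. Blood cell markers, 3 of 8 listed, summed to 471 and 545 against 435 and 454, without overlap. Hba-a2 had 238 and 332 in the controls and 194 and 200 in the knockouts (log2 fold change -0.57, adjusted p = 0.922). Hbb-b1 had 15.0 and 26.1 in the controls and 15.0 and 10.6 in the knockouts, which overlap (log2 fold change -0.75, adjusted p = 0.954). Alas2 went the other way, with 218 and 187 against 226 and 244 (log2 fold change 0.23, adjusted p = 0.954). With edgeR, an unadjusted p below 0.05 was found for 1 of 7 macrophage, 1 of 3 blood cell and 1 of 10 spermatid genes tested. The myoid, endothelial, spermatogonium and spermatocyte lists held 0. With DESeq2 there were 0 macrophage, 1 blood cell and 1 spermatid gene and 0 of those other lists. Over all features tested, the shares were 4.8% with edgeR and 1.38% with DESeq2. Spermatid markers summed to between 443520 and 536620 in the controls and between 528440 and 545101 in the knockouts, and spermatogonium markers to between 1810 and 1899 and between 1832 and 1884. Peritubular myoid markers ranged from 7295 to 8085 and from 7916 to 7931, macrophage markers from 1594 to 1611 and from 1482 to 1697, and endothelial markers from 64.5 to 83.8 and from 65.8 to 67.4, in controls and knockouts respectively. In the controls, 1 gene held a mean of 5355 of 7690 for the myoid sum, and 1 held 779 of 1602 for the macrophage sum. The log2 fold change was below 0 for 4 of 6 myoid, 5 of 7 macrophage and 2 of 3 endothelial genes tested. Both knockouts were below both controls for 1, 3 and 2 of these and above for 0, against 18.1% and 16.4% of all features tested. The part of these cells in the values of the Sertoli cell genes was not tested.

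**Figure D4:**
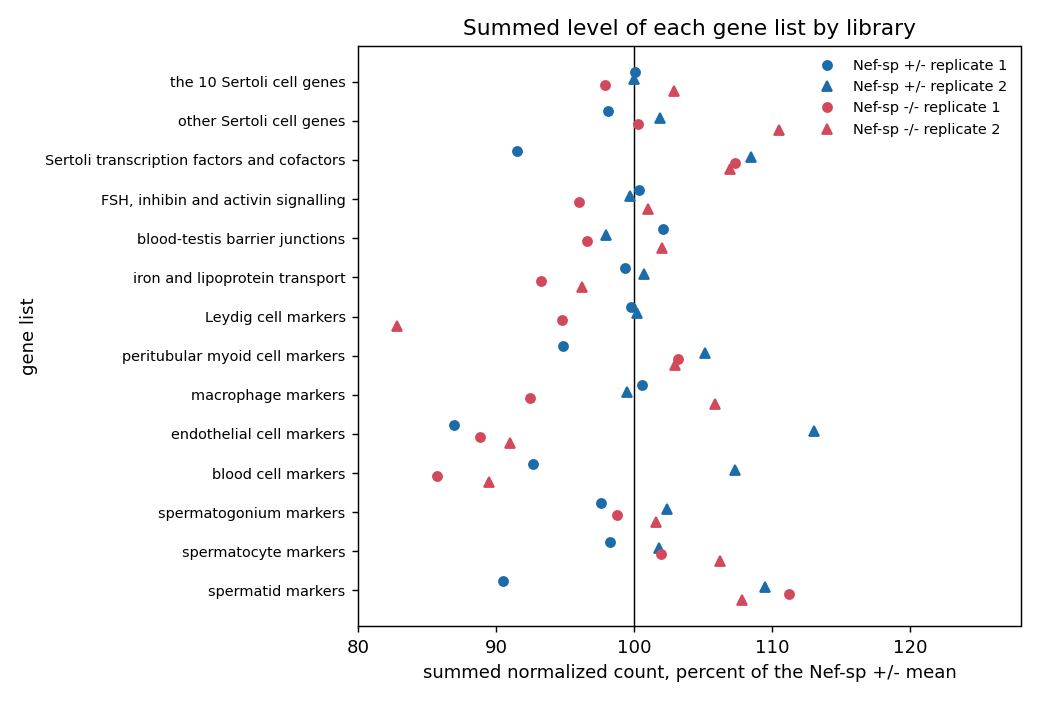
Summed normalized count of each gene list in each library (x axis, as percent of the Nef-sp+/- mean of that list; the axis starts at 80%), one row per list. The sum of the 10 Sertoli cell genes, with 83.1% to 84.0% of its reads from Clu, stays near 100% in all libraries. The Leydig cell sum, most of it Cyp17a1 and Cyp11a1, is below the controls in both knockouts. Of the 10 Leydig cell genes, 5 are above 0 in log2 fold change. Without overlap, 4 are lower and 0 higher, against 18.1% and 16.4% of all features tested.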

How the data were processed

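Total testicular RNA was depleted of ribosomal RNA and sequenced for 50 cycles in 4 strand-specific libraries. Mapping was to mm9, with software of the Sachidanandam laboratory (version not given in the sources used here). The authors kept perfect matches and deposited raw counts per feature, annotation category and strand. Other deposited columns hold the authors' own DESeq2 comparison and were not used. Genotype and replicate came from the labels.

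From the counts, gene exon sense and gene intron sense features were each fitted with edgeR 4.0.16 in R 4.3.3 (TMM, minimum count 10, two-sided quasi-likelihood test, no covariates), with Benjamini-Hochberg adjustment over all features of the category. Intervals are at 95%. Levels per length used the union of exons in GENCODE vM1 on mm9, found by symbol for 11506 of 12415 features. The test was checked on simulated counts. The genes named are the 10 members, Nef-sp and, in most other lists, the 2 with the smallest p, none being called. The 2 of the myoid, macrophage, endothelial, spermatogonium and spermatid lists are not named. Hsd3b1, Insl3, Hsd17b3, Pdgfra, Hbb-b1 and the unlisted genes were named after their values were seen. Members and lists were chosen with earlier results of these data known. Trfr2 and Lin28 in the table were taken as Tfr2 and Lin28a. Alternatives were DESeq2 1.42.0, other scalings and filters, leaving out single libraries, blocking on replicate number, and fitting the categories jointly. Figures were drawn with matplotlib 3.10.9.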

Additional observations from a re-analysis of the deposited data

How the results depend on the processing

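The count of Sertoli cell genes called was 0 in all 11 alternatives for exon reads and in all 11 for intron reads, 1 of the latter chosen after seeing the data, although leaving out Nef-sp+/- replicate 1 or 2 raised the calls over all exon features from 1 to 41 and 252. With a library left out, 1 genotype has a single library, which is assumed to vary like the pair of the other genotype. In the fit with a replicate block, the median log2 fold change of the Sertoli cell genes was -0.08 and 0 were called. The labels do not say that same numbers mark shared litters or days, and libraries that share a number deviated with a correlation of -0.0909 over exon and -0.154 over intron features. With the numbers crossed for intron reads, chosen after this value, 2 features were called and 0 of the Sertoli cell genes. The median over the genes ran from -0.108 to 0.0427 when each library was left out, and their summed log2 ratio from -0.0308 to 0.0413. The median ran from -0.11 to -0.08 in the other fits.

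Of 99 single-gene values under the alternatives, 90 kept their direction and 9 were reversed, none of them called. With single libraries left out, log2 fold changes spanned -0.55 to 0.315 for Sox9, -0.238 to 0.0794 for Gata4, -0.0165 to 0.042 for Clu, -0.388 to 0.16 for Trf, -0.352 to 0.0427 for Dmrt1, -0.0285 to 0.251 for Gata1, -0.188 to -0.0167 for Wt1, 0.00076 to 0.0924 for Cldn11 and -0.167 to -0.0166 for Inhbb. The reversals came without Nef-sp-/- replicate 1 for Sox9, Gata4, Trf and Dmrt1, without Nef-sp-/- replicate 2 for Clu and Gata1, without Nef-sp+/- replicate 1 for Gata4 and without Nef-sp+/- replicate 2 for Sox9. With libraries scaled to all categories, Clu was at -0.0133. The cause was not tested. Of the genes tested, Sox9 has the fewest reads and the widest interval.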
